A study of Homo sapiens with 12 samples.

Results

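The step from 24 to 48 h of treatment with mycophenolic acid (MPA) was examined in AGS cells, a human gastric adenocarcinoma cell line, by comparing the 2 arrays of cells harvested at 48 h with the 2 arrays of cells harvested at 24 h. These 4 of the 12 arrays of the series were taken by their titles. The cells of both groups were cultured with MPA at 2 ug/ml, no other agent, genotype change or line is named, and by their labels the 2 groups differ only in the time with the drug. The other arrays were 4 of control cells at 0 h, without the drug, and 2 each at 12 and 72 h. The labels number the replicates and do not say if each was a culture of its own. The p-values thus measure only how far these arrays spread, which may be technical, and the results rest on 1 cell line with no drug-free culture harvested at 24 or 48 h. Time with the drug and time in culture cannot be told apart.

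MPA blocks IMPDH (inosine monophosphate dehydrogenase), which makes the committed step of guanine nucleotide synthesis. Guanine nucleotides are needed for RNA and DNA synthesis, and proliferating cells that lack them are known to slow ribosomal RNA synthesis in the nucleolus, to activate p53 and to arrest in the cell cycle. AGS cells carry an active Wnt pathway, in which beta-catenin acts with TCF factors on target genes.

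Illumina bead arrays gave an intensity for each of 48803 probes, which was background-corrected, put on a log2 scale and quantile-normalized, so that a log2 difference of 1 is a 2-fold change. Of the probes, 15192 to 15764 were detected at 24 h and 14837 to 14916 at 48 h (detection p under 0.01). The 95th percentile of intensity was 26.7 to 29.5 times the 5th at 24 h and 22.3 to 26.2 times at 48 h. The part of these differences in the results was not tested. Across genes, the SD of the log2 difference between arrays was 0.26 within 24 h, 0.29 within 48 h and 0.42 to 0.45 between an array of each group. Of 7 epithelial markers 6 were detected on all 4 arrays (KRT8, KRT19, EPCAM, CDH1, CLDN7 and ESRP1), and KRT18 on none. Of the markers listed as gastric, only SOX2 and CDX2, a factor of the intestine, were detected on all 4 arrays. TFF2, TFF3, MUC6, GKN1 and CDX1 were detected on none. Of 7 leukocyte markers 2 (LYZ and CD68) were detected on all 4 arrays, CD14 on 1, and PTPRC, CD3E, MS4A1 and HLA-DRA on none, and the log2 of their summed level was 11.85 to 12.01 at 24 h and 11.93 to 12.06 at 48 h. Of 8 fibroblast markers VIM was detected on all 4 arrays, COL1A1 on 2 and the other 6 on none, and the log2 of their summed level was 8.92 to 8.97 at 24 h and 8.51 to 8.55 at 48 h. None of the 6 endothelial markers was detected. The part of other cells in the results was not tested.

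Between 24 and 48 h, 473 of 10469 genes were up-regulated (4.52%) and 685 were down-regulated (6.54%) at an adjusted p under 0.05 (limma with Benjamini-Hochberg adjustment over all genes, all 12 arrays in the fit). Of these, 69 (0.659%) rose and 114 (1.09%) fell at least 2-fold. Of the genes that rose, 31 were detected on neither 24 h array, and of those that fell, 88 on neither 48 h array. Their fold changes depend on the background level. Among genes detected on all 4 arrays, 50 rose and 68 fell at least 2-fold. The changes were modest, with a median size of 0.70 on the log2 scale among both the genes that rose and those that fell, and only 6 and 4 genes passed 4-fold. Both 48 h arrays lay on one side of both 24 h arrays for all called genes, as they did for 59.3% of all genes tested. At an unadjusted p under 0.05 (limma), 1361 of the 10469 genes were higher and 1568 lower, and unadjusted counts of list members are read against these. The split between rises and falls depended on scaling. With arrays scaled to a common median of all probes, 77 genes rose and 522 fell, and the median of all genes moved from -0.01 to -0.18, whereas scaling to the median of the genes tested gave 460 and 575. A member's difference is therefore read against these medians. The counts also needed all 4 arrays: without 1 of them 104 to 196 genes rose and 172 to 320 fell, the fewest without 24 h replicate 2.

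**Figure D1:**
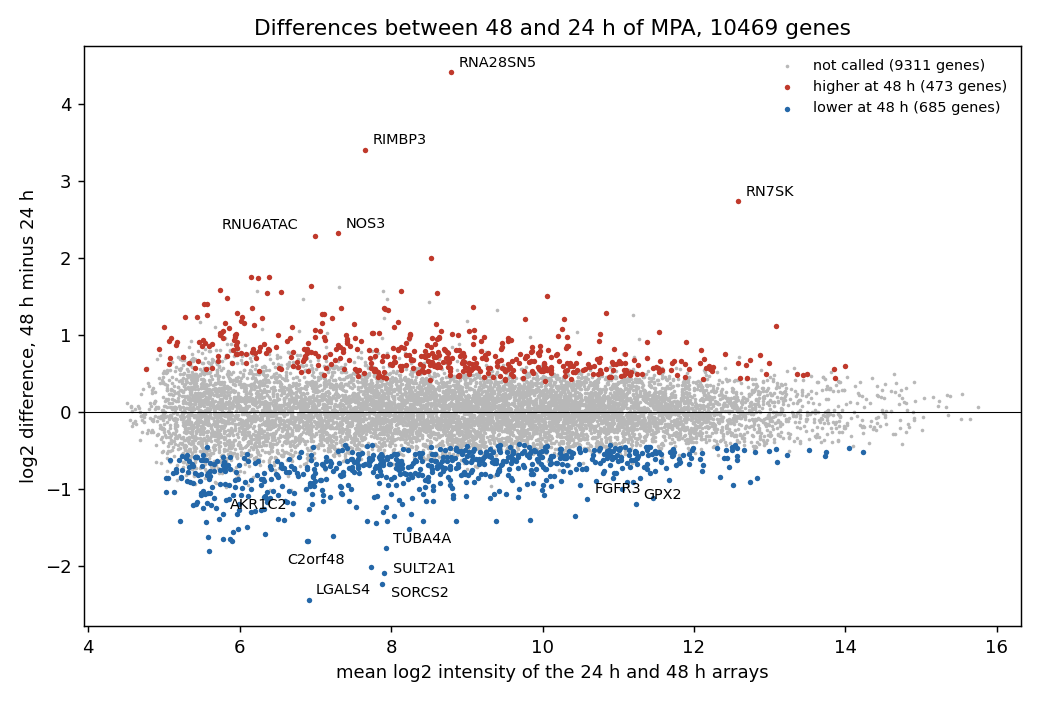
Each point is 1 of 10469 genes, placed by its mean log2 intensity over the 24 and 48 h arrays (horizontal) and by its log2 difference, 48 h minus 24 h (vertical), with genes at an adjusted p under 0.05 in colour. RNA28SN5, RIMBP3 and RN7SK stand above 2.7, and LGALS4, SORCS2, SULT2A1 and C2orf48 below -2.

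RNAs that code for no protein stood among the strongest rises. RNA28SN5, a 28S ribosomal RNA, had log2 levels of 6.64 and 6.54 at 24 h and 11.20 and 10.80 at 48 h. It rose by 4.41 on the log2 scale (SE 0.38, adjusted p = 4.9e-05), a 21.2-fold change. RN7SK, the 7SK small nuclear RNA that holds the elongation factor P-TEFb inactive, had levels of 11.27 and 11.16 at 24 h and 13.95 and 13.96 at 48 h. Its difference was 2.74 (SE 0.19, adjusted p = 1.3e-05), and another probe of it gave 2.96. The minor-spliceosome RNA RNU6ATAC rose from 5.78 and 5.93 to 7.94 and 8.35 (4.88-fold), and RNU11, of the same spliceosome and detected on 1 of the 24 h arrays, from 5.22 and 5.54 to 7.08 and 7.14 (3.33-fold). In each of these RNAs the replicates lay close together and far from the other group, and the calls held without any 1 of the 4 arrays. Under settings that kept every array the log2 difference was as low as 3.53 for RNA28SN5, 2.53 for RN7SK, 1.345 for RNU6ATAC and 0.81 for RNU11. RNA28SN5 and RN7SK have near-identical copies in the genome, so their probes may read several loci.

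Since these genes were seen first, all short non-coding and ribosomal RNAs were then counted. Of 48 measured, 13 rose (27.1%, against 4.52% of all genes) and 0 fell (limma, and 21 higher and 0 lower at an unadjusted p under 0.05), 39 differences were above 0, and the median was 0.37. The count includes the 4 RNAs above, which prompted it. The others that rose are 9 of 40 small nucleolar RNAs (snoRNAs, 22.5%), which guide the modification of ribosomal RNA. SNORD46 had the largest of the snoRNA differences, from 5.72 and 5.82 to 7.37 and 7.29 (2.94-fold, adjusted p = 7.7e-04). SNORD13 rose 2.20-fold and SNORD68 2.14-fold, but SNORD13 lost its call without 48 h replicate 2 (adjusted p = 0.051), as did SNORD68 without 24 h replicate 2 or 48 h replicate 1 (up to 0.053). SNORD22, SNORD48 and SNORA10 had the lowest values, -0.32, -0.30 and -0.30, and did not pass the test. With 1 of the 4 arrays left out 7 to 9 of the 48 were called higher, and with scaling to the median of all probes 7 were. The cRNA was primed with oligo-dT, while the mature forms of most of these RNAs carry no poly(A) tail, so the levels are those of the RNA that entered the labelling. The assembly factors of the nucleolus, where ribosomal RNA is made, differed little. Of 59 measured, 1 rose and 1 fell (1.69% each, against 4.52% and 6.54% of all genes). The median was 0.14, or -0.04 with scaling to the median of all probes, where the median of all genes was -0.18.

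**Figure D2:**
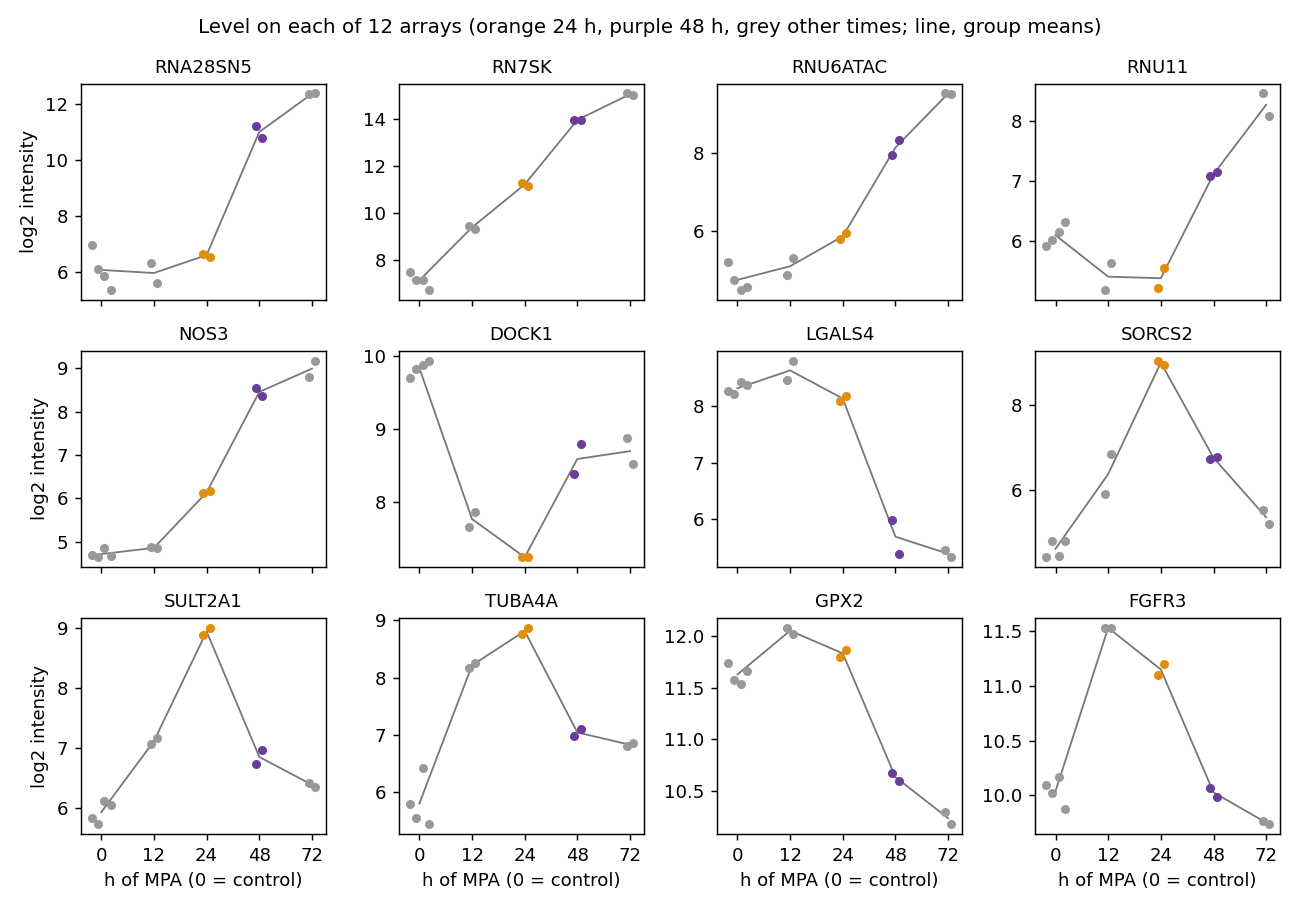
Log2 intensity of 12 genes on each of the 12 arrays against the hours of MPA (0 is the control), with a line through the group means. RNA28SN5, RN7SK, RNU6ATAC, RNU11, NOS3 and DOCK1 are higher on both 48 h arrays (purple) than on both 24 h arrays (orange), and the other 6 genes are lower.

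Among coding genes, RIMBP3 rose most, from 6.15 and 5.76 to 9.30 and 9.42 (3.40 on the log2 scale, SE 0.20, adjusted p = 5.4e-06). It has near-identical paralogs that its probe may also read. NOS3, the endothelial nitric oxide synthase, had levels of 6.12 and 6.16 at 24 h and 8.55 and 8.37 at 48 h, a 5.0-fold rise (adjusted p = 6.0e-06). PRAP1 rose 3.38-fold, ABCA12, a lipid transporter, 2.96-fold, and CRYAB, a small heat shock protein, 2.90-fold. CLCA2 was detected on both 48 h arrays and on no 24 h array, which gives a rise of at least 2.12-fold. These 6 genes kept their calls without any 1 of the 4 arrays and under the other settings tried, except that CLCA2 was not among the genes detected on all 4 arrays. Their sizes moved: with every array kept, the log2 difference was as low as 2.305 for RIMBP3, 1.47 for NOS3 and 1.18 for ABCA12. It was as low as 0.86 for PRAP1, 0.75 for CRYAB and 0.64 for CLCA2. At 24 h PRAP1 and CRYAB lay near the lowest detected signals of the arrays (5.38 and 5.52). HNRNPL, RREB1 and MEX3D also stood among the 12 largest rises, but their replicates disagreed. HNRNPL was at 7.98 and 7.06 at 24 h and 9.85 and 9.19 at 48 h, and its adjusted p of 0.0091 became 0.089 without 24 h replicate 2 and 0.068 without 48 h replicate 1. RREB1 reached an adjusted p of 0.23 without 24 h replicate 2, where its difference of 1.75 became 1.2, and of 0.13 and 0.097 without 48 h replicate 1 and 2. MEX3D reached 0.16 without 24 h replicate 2 or 48 h replicate 1, and 0.078 without 24 h replicate 1.

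LGALS4, which encodes galectin-4 of the gut epithelium, fell most, from 8.09 and 8.18 at 24 h to 6.0 and 5.39 at 48 h (5.43-fold lower, SE 0.19 on the log2 scale, adjusted p = 1.9e-05). SORCS2, a sorting receptor of the VPS10 family, fell from 9.04 and 8.95 to 6.73 and 6.78, 4.73-fold. SULT2A1, a hydroxysteroid sulfotransferase, fell from 8.89 and 9.01 to 6.73 and 6.97, 4.28-fold. The transcript C2orf48 fell 4.05-fold, the alpha-tubulin TUBA4A 3.41-fold, the apolipoprotein APOA2 3.21-fold and the calpain CAPN13 3.20-fold. The calls of these 7 genes held without any 1 of the 4 arrays. LGALS4 on 48 h replicate 2 lay below the lowest detected signal of that array (5.59), so its fold depends on the background level. Under settings that kept every array the log2 differences were as small as -1.39 for LGALS4, -1.61 for SORCS2 and -1.51 for SULT2A1. They were as small as -1.41 for C2orf48, -1.29 for TUBA4A, -0.96 for APOA2 and -0.955 for CAPN13. The other 5 of the 12 largest falls, in SLC5A1, LRTOMT, APCDD1L, TEX14 and GRAP, were detected on both 24 h arrays and on no 48 h array. Their falls are therefore bounds, of at least 2.18-fold for SLC5A1, the intestinal sodium-glucose cotransporter, at least 2.13-fold for LRTOMT, 2.00-fold for APCDD1L, 1.87-fold for TEX14 and 1.73-fold for GRAP.

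The genes of this step were then read in comparisons that use none of the 4 arrays. At 12 h against 0 h, where 16.4% of all genes rose and 17.9% fell, 213 of the 473 genes that rose from 24 to 48 h had been lower (45.0%) and 48 higher (10.1%). Of the 685 genes that fell from 24 to 48 h, 319 had been higher at 12 h than at 0 h (46.6%) and 48 lower (7.01%). At 72 h against 12 h, where 17.2% of all genes rose and 15.9% fell, 340 of the 473 were higher (71.9%, and 18.9% of the genes higher there) and 2 lower. Of the 685, 475 were lower at 72 h than at 12 h (69.3%, and 28.5% of the genes lower there) and 9 were higher. The 815 genes called the same way in both became 234 to 407 when 1 of the 24 or 48 h arrays was left out. The 12 h arrays enter both comparisons with opposite sign. A low level there gives both a fall at 12 h and a rise by 72 h, so the shares are not independent of each other. The estimate of the spread and the normalization are shared by these comparisons.

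**Figure D3:**
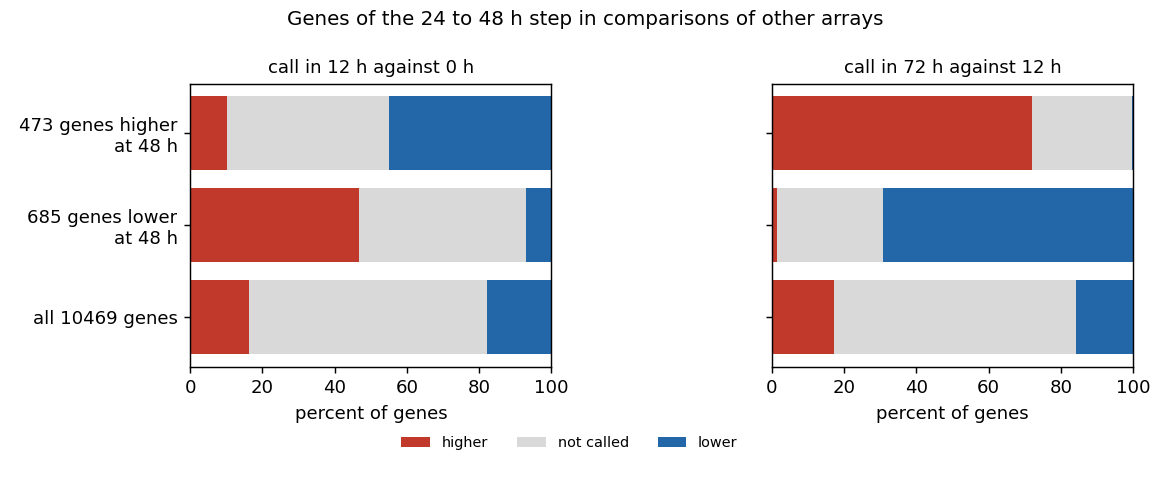
Percent of the 473 genes higher and the 685 genes lower at 48 h than at 24 h, and of all 10469 genes, that were higher, lower or not called in 12 h against 0 h (left) and in 72 h against 12 h (right), which use other arrays. On the left 45.0% of the genes higher at 48 h had been lower at 12 h, and on the right 71.9% were higher at 72 h. Both sides use the 12 h arrays, with opposite sign.

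DOCK1, a Rac activator, had a mean level of 9.83 at 0 h and 7.76 at 12 h, was at 7.24 and 7.24 at 24 h, and was at 8.37 and 8.79 at 48 h. FGFR3, a fibroblast growth factor receptor, had means of 10.04 at 0 h and 11.53 at 12 h, and went from 11.10 and 11.20 at 24 h to 10.06 and 9.99 at 48 h (2.18-fold lower, adjusted p = 3.2e-04). TUBA4A had means of 5.81 at 0 h, 8.22 at 12 h, 8.81 at 24 h, 7.05 at 48 h and 6.83 at 72 h. RN7SK and NOS3 did not turn: NOS3 had means of 4.71, 4.86, 6.14, 8.46 and 9.0 at 0, 12, 24, 48 and 72 h.

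Genes of DNA replication and of mitosis were called in 1 direction, lower. Of 46 measured members of the list for DNA replication and entry into S phase, 15 fell (32.6%, against 6.54% of all genes) and 0 rose, 41 differences were below 0, and the median was -0.34 (limma, and 26 lower and 0 higher at an unadjusted p under 0.05). PRIM1, the primase subunit that starts DNA strands, fell from 11.04 and 10.90 to 10.18 and 9.86 (1.93-fold, adjusted p = 0.0024). TK1, the thymidine kinase of S phase, fell from 12.63 and 12.89 to 11.93 and 11.91 (1.79-fold, adjusted p = 0.0024), and ORC1, of the origin recognition complex, from 8.59 and 8.55 to 7.77 and 7.77 (1.74-fold, adjusted p = 0.0037). The clamp loader subunits RFC2 and DSCC1 fell 1.91-fold and 1.84-fold, but RFC2 lost its call without 24 h replicate 2 or 48 h replicate 2, and DSCC1 when any 1 of the 4 arrays was left out (adjusted p up to 0.10 and 0.11). PCNA (-0.06) and MCM6 (-0.05) did not pass the test. The clustered histone genes did not go lower with them. Of 24 measured, 3 rose (12.5%, against 4.52% of all genes) and 0 fell, with a median of 0.11 (limma, and 7 higher and 2 lower at an unadjusted p under 0.05).

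Among genes of G2 phase and mitosis, 16 of 55 measured fell (29.1%) and 0 rose, 49 differences were below 0, and the median was -0.42 (limma, and 32 lower and 0 higher at an unadjusted p under 0.05). CENPM, a centromere protein, fell from 10.11 and 10.25 to 9.16 and 9.21 (2.00-fold, adjusted p = 0.0036), with its other 2 probes at -1.16 and -0.78. INCENP, of the chromosomal passenger complex, went from 6.29 and 7.02 to 5.62 and 5.69, and its adjusted p of 0.014 became 0.13 without 24 h replicate 2, 0.07 without 48 h replicate 1 and 0.064 without 48 h replicate 2. SPC25 of the kinetochore fell 1.94-fold, the mitotic kinesin KIF20A 1.73-fold and the phosphatase CDC25C, which activates CDK1, 1.72-fold. Leaving out 24 h replicate 1 or 48 h replicate 1 ended the call of each of these 3 (adjusted p up to 0.11), as did leaving out 24 h replicate 2 for KIF20A. CCNB1, the mitotic cyclin, had a difference of 0.31 and did not pass the test. With 1 of the 4 arrays left out, 3 to 6 replication genes (3 without 24 h replicate 2) and 4 to 6 mitotic genes were called lower, and 0 higher. Relative to the median of all genes, the list medians were -0.33 and -0.42, and -0.37 and -0.45 with scaling to the median of all probes.

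**Figure D4:**
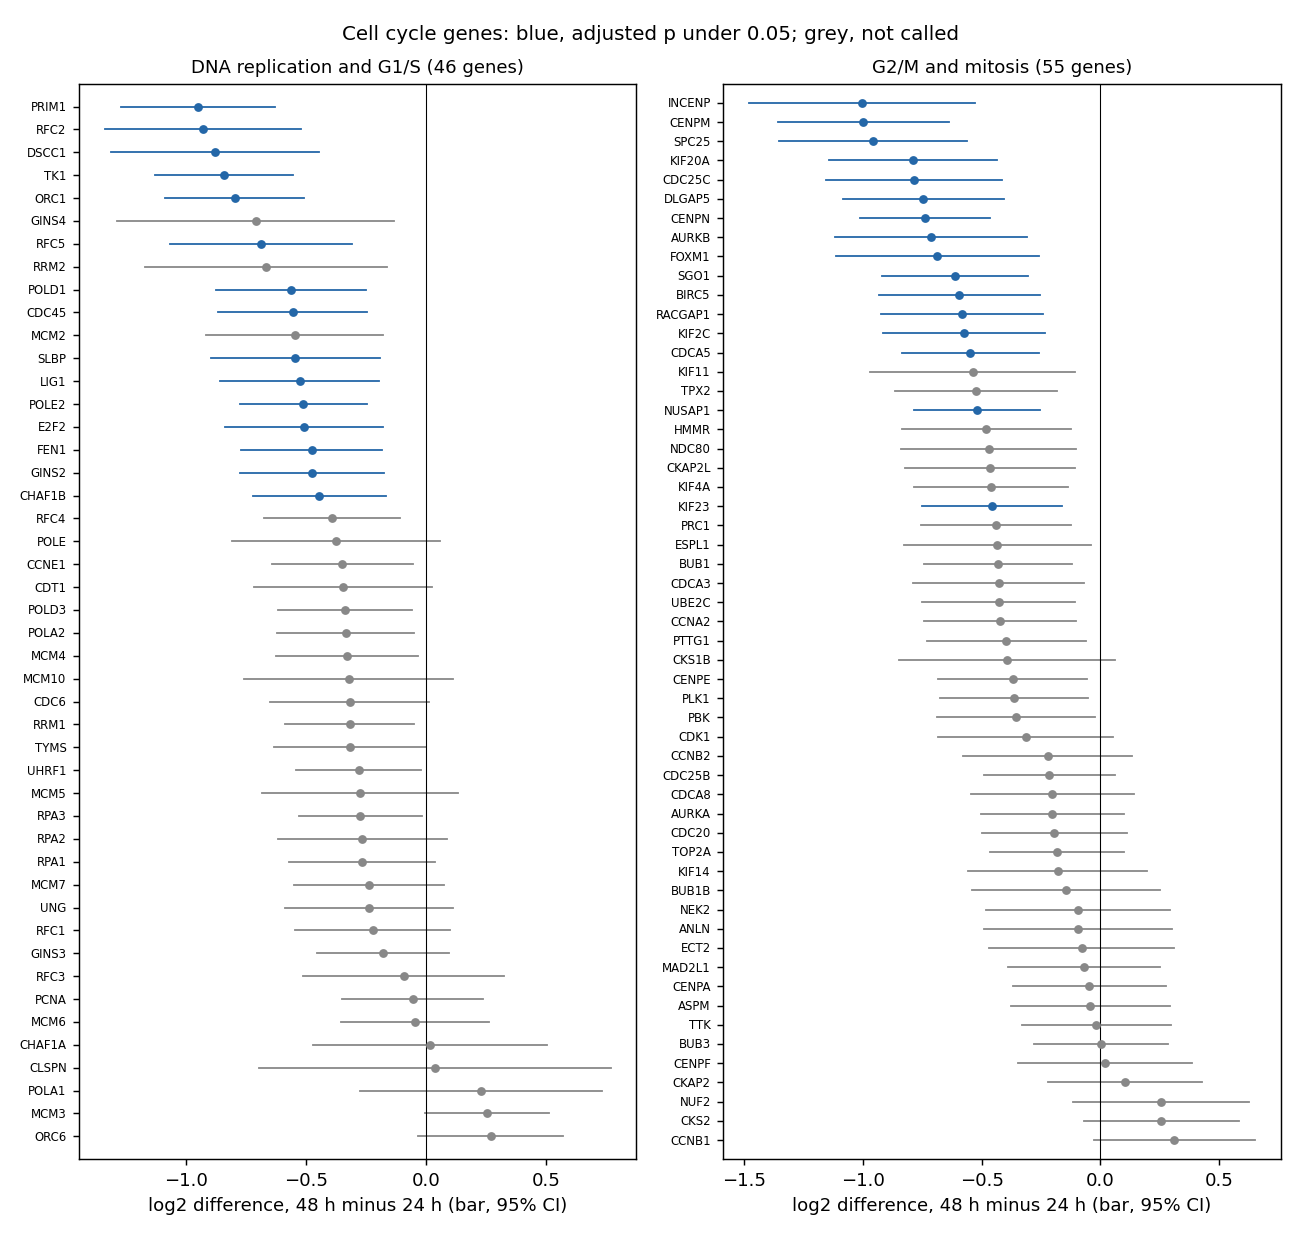
Log2 difference, 48 h minus 24 h, with its 95% confidence interval for each measured gene of DNA replication and G1/S (46, left) and of G2/M and mitosis (55, right), with genes at an adjusted p under 0.05 in blue. No gene was called higher, and 41 and 49 differences lie below 0.

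The same lists had differed at 12 h against 0 h, on other arrays. There 16 of the 46 replication genes were higher and 3 lower, while 4 of the 55 mitotic genes were higher and 23 lower. TK1 had means of 11.90 at 0 h and 12.83 at 12 h, and PRIM1 of 10.46 and 10.88. The mitotic KIF23, a kinesin of cytokinesis, had means of 10.65 and 10.20.

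The upstream sequences of these genes were searched, since replication genes are known to carry sites of E2F factors and mitotic genes the cell cycle homology region (CHR). RefSeq sequences (GRCh38.p14) of the 250 bases before each listed start were at hand for 39 of the 46 and 45 of the 55 genes. TTTCCCGC or TTTGGCGC, written for E2F, stood on either strand before 13 of the 39 replication genes (33.3%), 341 of 8602 genes tested (3.96%) and 30 of 561 genes that fell (5.35%). TTTGAA, written for the CHR, stood before 24 of the 45 mitotic genes (53.3%), 1064 of 8602 genes tested (12.4%) and 65 of 561 genes that fell (11.6%). Among the list members that fell, the E2F letters stood before 3 of 14 (21.4%) and the CHR letters before 5 of 12 (41.7%). The stretches below are of members that fell, 5′ to 3′ on the strand of the gene, with the motif in capitals. CDC25C has several listed starts, and INCENP and KIF23 show the motif within 50 bases of theirs.
CDC25C (chr5:138331805-138331864, minus strand): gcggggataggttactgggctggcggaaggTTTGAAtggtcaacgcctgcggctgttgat
INCENP (chr11:62123971-62124010, plus strand): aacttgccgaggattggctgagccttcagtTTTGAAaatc
KIF23 (chr15:69414264-69414329, plus strand): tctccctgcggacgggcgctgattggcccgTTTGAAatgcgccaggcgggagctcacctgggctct
GINS2 (chr16:85688955-85689015, minus strand): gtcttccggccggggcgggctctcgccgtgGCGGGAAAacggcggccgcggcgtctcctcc
LIG1 (chr19:48170421-48170488, minus strand): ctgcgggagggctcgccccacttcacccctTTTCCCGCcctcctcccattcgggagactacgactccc
E2F2 (chr1:23531238-23531305, minus strand): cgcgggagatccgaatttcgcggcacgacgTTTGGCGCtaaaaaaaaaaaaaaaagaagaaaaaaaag
In GINS2 the motif lies on the other strand. LIG1, the DNA ligase of replication, fell from 11.53 and 11.47 to 11.01 and 10.93 (adjusted p = 0.045), GINS2, of the replicative helicase, from 10.61 and 10.83 to 10.30 and 10.18 (0.044), the factor E2F2 from 10.40 and 10.09 to 9.77 and 9.70 (0.049) and KIF23 from 10.32 and 10.20 to 9.86 and 9.75 (0.048). These 4 genes were chosen for their motif, lie just inside the threshold, and did not pass it when any 1 of the 4 arrays was left out (adjusted p of 0.072 to 0.27).

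Of 23 measured Wnt target and feedback genes, 7 rose (30.4%, against 4.52% of all genes) and 1 fell, 18 differences were above 0, and the median was 0.39. CD44, a hyaluronan receptor, rose from 9.60 and 9.54 to 10.33 and 10.38 (1.73-fold, adjusted p = 0.0083), and the feedback inhibitor NKD1 from 8.64 and 8.48 to 9.23 and 9.37 (1.67-fold, adjusted p = 0.027). Other probes of CD44 gave 0.07 and 0.46, and CD44 was not called with the mean of its probes. RNF43, a ubiquitin ligase that removes Wnt receptors, rose 1.51-fold. CTNNB1, beta-catenin itself, went from 7.91 and 7.59 to 9.13 and 8.37, and TCF7L2, its partner, from 8.42 and 7.84 to 9.23 and 8.94. AXIN2, a Wnt target used as a readout of the pathway, had a difference of 0.28 and did not pass the test. At 12 h against 0 h 10 of the 23 had been lower and 2 higher. CD44 did not pass without 24 h replicate 2 (0.064) or 48 h replicate 2 (0.054), NKD1 and RNF43 when any 1 of the 4 arrays was left out (0.061 to 0.23), CTNNB1 without any but 48 h replicate 2 and TCF7L2 without any but 24 h replicate 1 (0.066 to 0.21). In the whole list 0 to 2 members were called higher without 1 of the 4 arrays (0 without 24 h replicate 2), and 0 with scaling to the median of all probes, under which the list median stayed at 0.34 above that of all genes.

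MYC, the growth-promoting transcription factor, rose from 11.97 and 12.09 to 12.78 and 12.78 (1.69-fold, adjusted p = 0.012), and MXD4, which competes for its partner MAX, from 9.70 and 9.65 to 10.44 and 10.51 (1.74-fold, adjusted p = 0.0052). MXD4 was called without any 1 of the 4 arrays, and MYC had adjusted p of 0.055 to 0.077. In the MYC, MAX and MXD network 3 of 10 genes rose (30%, against 4.52% of all genes) and 0 fell (limma, and 3 and 0 at an unadjusted p under 0.05). The third was MYCN, at the edge of the threshold (6.65 and 6.45 against 7.31 and 6.83). Neither MYC nor MXD4 passed the test with scaling to the median of all probes (adjusted p = 0.17 and 0.16).

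Interferon-stimulated genes split. Of 47 measured, 6 rose (12.8%) and 2 fell (4.26%), against 4.52% and 6.54% of all genes. The list median of 0.11 became -0.10 with scaling to the median of all probes, where the median of all genes was -0.18. TRIM22, an antiviral ubiquitin ligase, rose from 5.31 and 5.66 to 6.68 and 6.60 (2.23-fold) and DDX60 from 8.05 and 8.25 to 9.14 and 9.07 (1.94-fold, adjusted p = 0.0016). Both held without any 1 of the 4 arrays. TRIM22 on 24 h replicate 1 lay below the lowest detected signal of that array (5.38). Its log2 difference ran from 0.50 to 1.23 under settings that kept every array. IFI6 was at 12.54 and 12.52 at 24 h and at 13.96 and 13.32 at 48 h, and its adjusted p of 0.0071 became 0.053 without 24 h replicate 2 and 0.057 without 48 h replicate 1. IFI35 fell 1.75-fold, but lost its call without 3 of the 4 arrays, 24 h replicate 1 being the exception (adjusted p up to 0.18).

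Genes of cell migration were called in both directions. Of 40 measured genes of focal adhesions and integrins 4 rose (10%) and 5 fell (12.5%), and of 56 genes of the actin cytoskeleton 3 rose (5.36%) and 2 fell (3.57%), against 4.52% and 6.54% of all genes. DOCK1 rose 2.54-fold (adjusted p = 5.7e-04). MSN, which encodes moesin and links actin to the membrane, fell from 11.38 and 11.30 to 10.62 and 10.48 (1.73-fold, adjusted p = 0.0039), and PDLIM7 from 9.98 and 10.11 to 9.05 and 8.92 (2.09-fold, adjusted p = 7.7e-04). These 3 calls held without any 1 of the 4 arrays. THBS1, the matrix protein thrombospondin-1, was at 9.72 and 8.88 at 24 h and at 10.86 and 10.75 at 48 h, and its adjusted p of 0.024 became 0.19 without 24 h replicate 2, 0.099 without 48 h replicate 1 and 0.09 without 48 h replicate 2. Of 33 axon guidance genes 6 rose (18.2%) and 1 fell. SEMA3F, a repellent semaphorin, fell from 7.99 and 7.94 to 7.20 and 7.14 (1.73-fold, adjusted p = 0.0056), while SEMA3C rose 2.02-fold and SEMA5A 1.76-fold. SEMA3C lost its call without 24 h replicate 2 or 48 h replicate 2, and SEMA5A without 24 h replicate 1 or 48 h replicate 2 (adjusted p up to 0.08 and 0.093). With scaling to the median of all probes 0 axon guidance genes rose.

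Of the migration genes that the study named, NOS3, DOCK1, CITED2 and HSPA5 rose and LRP8 fell. This is a larger share than the 11.1% of all genes that were called, but the study picked most of these genes from these arrays. The others measured did not pass the test. CITED2, a transcriptional coregulator, was at 9.59 and 9.84 at 24 h and at 10.52 and 11.06 at 48 h (2.10-fold, adjusted p = 0.0092), but did not pass without 24 h replicate 1 (0.07) or 48 h replicate 2 (0.082), nor with scaling to the median of all probes (0.074). HSPA5, the chaperone BiP of the endoplasmic reticulum, went from 7.35 and 6.86 to 8.0 and 7.56 (1.59-fold, adjusted p = 0.03, and 0.24 without 24 h replicate 2, 0.19 without 48 h replicate 1, 0.22 with scaling to the median of all probes). LRP8, the apolipoprotein E receptor 2, went from 8.06 and 8.41 to 7.45 and 7.47 (1.71-fold lower, adjusted p = 0.013, and 0.12 without 24 h replicate 2, 0.063 without 48 h replicate 1, 0.064 without 48 h replicate 2). The cadherin CDH10 (0.71, 95% CI 0.14 to 1.28, adjusted p = 0.10), CCN1 (0.48, 0.10) and ARRB1 (0.44, 0.12) did not pass the test. ATF3 had a difference of 0.16, INF2 of -0.06, PDGFRA of -0.07, MMP1 of -0.18, SMAD3 of -0.27, SRC of -0.35, CEACAM1 of -0.40 and PRKCA of -0.50, with adjusted p from 0.079 to 0.84. IGFBP5 was detected on none of the 4 arrays. The IMPDH genes, whose products are the target of the drug, had differences of 0.00 for IMPDH1 (SE 0.17) and -0.13 for IMPDH2 (SE 0.14), and neither passed the test.

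Antioxidant, mitochondrial and metal-binding genes were called lower in small numbers. Of 25 targets of NRF2, the regulator of the oxidative stress response, 4 fell (16%) and 0 rose, with a median of -0.25 (limma, and 9 lower and 0 higher at an unadjusted p under 0.05). GPX2, the gastrointestinal glutathione peroxidase, fell from 11.80 and 11.87 to 10.67 and 10.60 (2.29-fold, adjusted p = 2.0e-04). The aldo-keto reductase AKR1C2 was detected on both 24 h arrays and on no 48 h array, a fall of at least 1.79-fold, and its near-identical relative AKR1C3 fell 1.84-fold (adjusted p = 0.036, up to 0.20 without 1 of the 4 arrays, each of which ended the call). SOD2, the mitochondrial superoxide dismutase, fell from 11.62 and 11.46 to 10.44 and 10.65 (1.99-fold, adjusted p = 0.0013). Of 57 genes of the respiratory chain and ATP synthase 4 fell (7.02%, near the 6.54% of all genes) and 45 differences were below 0, with a median of -0.21. All 10 measured genes of a list of metallothioneins, carbonic anhydrases, the zinc sensor MTF1 and the zinc exporter SLC30A1 had differences below 0. Of these, 3 fell (30%, against 6.54% of all genes), MT1F, MT1X and SLC30A1 (limma, and 6 at an unadjusted p under 0.05). MT1F went from 8.83 and 9.24 to 8.34 and 7.80 and SLC30A1 from 12.12 and 12.10 to 11.36 and 11.48, and 0 or 1 member was called without 1 of the 4 arrays (0 without 48 h replicate 2). Near-identical metallothioneins may share the probes of MT1F and MT1X.

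Receptors, tubulins and differentiation genes also contributed falls. Of 28 growth factor receptors and ligands 5 fell (17.9%) and 2 rose (7.14%), against 6.54% and 4.52% of all genes. The receptor kinase TYRO3 fell from 9.56 and 9.61 to 8.69 and 8.75 (1.82-fold, adjusted p = 0.0035), while its ligand GAS6 rose from 8.54 and 8.2 to 9.08 and 9.07 (1.63-fold, adjusted p = 0.008, 0.086 without 24 h replicate 2 and 0.21 with scaling to the median of all probes). Of 13 tubulins 4 fell and 0 rose (30.8% against 6.54% of all genes lower, limma, and 4 and 0 at an unadjusted p under 0.05). TUBG1 and TUBA3D did not pass when any 1 of the 4 arrays was left out and TUBA1C passed only without 48 h replicate 1, so that 1 or 2 tubulins were called lower. Of 25 gastrointestinal differentiation genes 6 fell (24.0%) and 3 rose. REG4, a secreted lectin, fell from 12.11 and 12.12 to 11.21 and 11.24 (1.86-fold, adjusted p = 0.004), whereas GATA6, a transcription factor of gut epithelium, was detected on both 48 h arrays and no 24 h array, a rise of at least 1.68-fold. SOX2, a stem cell factor also made in the stomach, went from 8.77 and 8.52 to 9.46 and 9.58 (adjusted p = 0.019). Its log2 difference ran from 0.754 to 0.998 without 1 of the 4 arrays, and leaving out any of them ended the call. Another probe of SOX2 gave 0.35, and SOX2 was not called with the mean of its probes.

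Of 50 genes of ER chaperones and ER-associated degradation 1 rose, HSPA5 (2%), and 2 fell (4%), both below the 4.52% and 6.54% of all genes. DNAJC3, an ER cochaperone of BiP that also inhibits the kinase PERK, fell from 7.86 and 7.95 to 6.95 and 6.97 (1.93-fold, adjusted p = 5.6e-04), and CRELD2 from 11.32 and 11.49 to 10.79 and 10.57 (1.65-fold, adjusted p = 0.0065, and up to 0.067 without 24 h replicate 2 or 48 h replicate 2). HSPA6, an inducible heat shock protein, fell from 7.08 and 7.02 to 5.85 and 6.09 (2.11-fold). It was the only 1 of 39 heat shock genes that fell (2.56%), while 3 rose (7.69%, limma, and 1 lower and 7 higher at an unadjusted p under 0.05). PCK2, a mitochondrial enzyme induced by the factor ATF4, fell from 10.61 and 10.57 to 9.65 and 9.61 (1.95-fold, adjusted p = 0.0015). Of 28 genes of ATF4 and the amino acid response 2 fell (7.14%) and 1 rose (3.57%), near the shares of all genes. DNAJC3, HSPA6 and PCK2 kept their calls without any 1 of the 4 arrays.

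Targets of p53 and nucleolar genes, which differed at 12 h, differed little in this step. Of 25 p53 target genes 20 were higher at 12 h than at 0 h. From 24 to 48 h 1 rose, PLTP (4%), and 0 fell (limma, and 4 higher and 2 lower at an unadjusted p under 0.05). The median was 0.03, or -0.20 with scaling to the median of all probes, where the median of all genes was -0.18. PLTP, a phospholipid transfer protein, did not pass when any 1 of the 4 arrays was left out (adjusted p of 0.087 to 0.17). Of the 59 nucleolar assembly factors 28 were lower at 12 h than at 0 h. Of 34 proteasome subunits 0 were called from 24 to 48 h by limma, 1 was higher and 7 lower at an unadjusted p under 0.05, and with the log2 values of the authors 1 rose and 4 fell. Of 28 genes of the PI3K, AKT and mTOR pathway 0 were called, 5 were higher and 0 lower at an unadjusted p under 0.05, and with the log2 values of the authors 2 rose. Of 12 G1 cyclins and CDK inhibitors 0 were called, and 1 was higher and 1 lower at an unadjusted p under 0.05 as well as with the log2 values of the authors. Of all 10469 genes, 1361 were higher and 1568 lower at an unadjusted p under 0.05 (limma). With the log2 values of the authors 684 rose and 876 fell. Of 65 cytosolic ribosomal protein genes 2 rose (3.08%) and 1 fell (1.54%), against 4.52% and 6.54% of all genes.

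**Figure D5:**
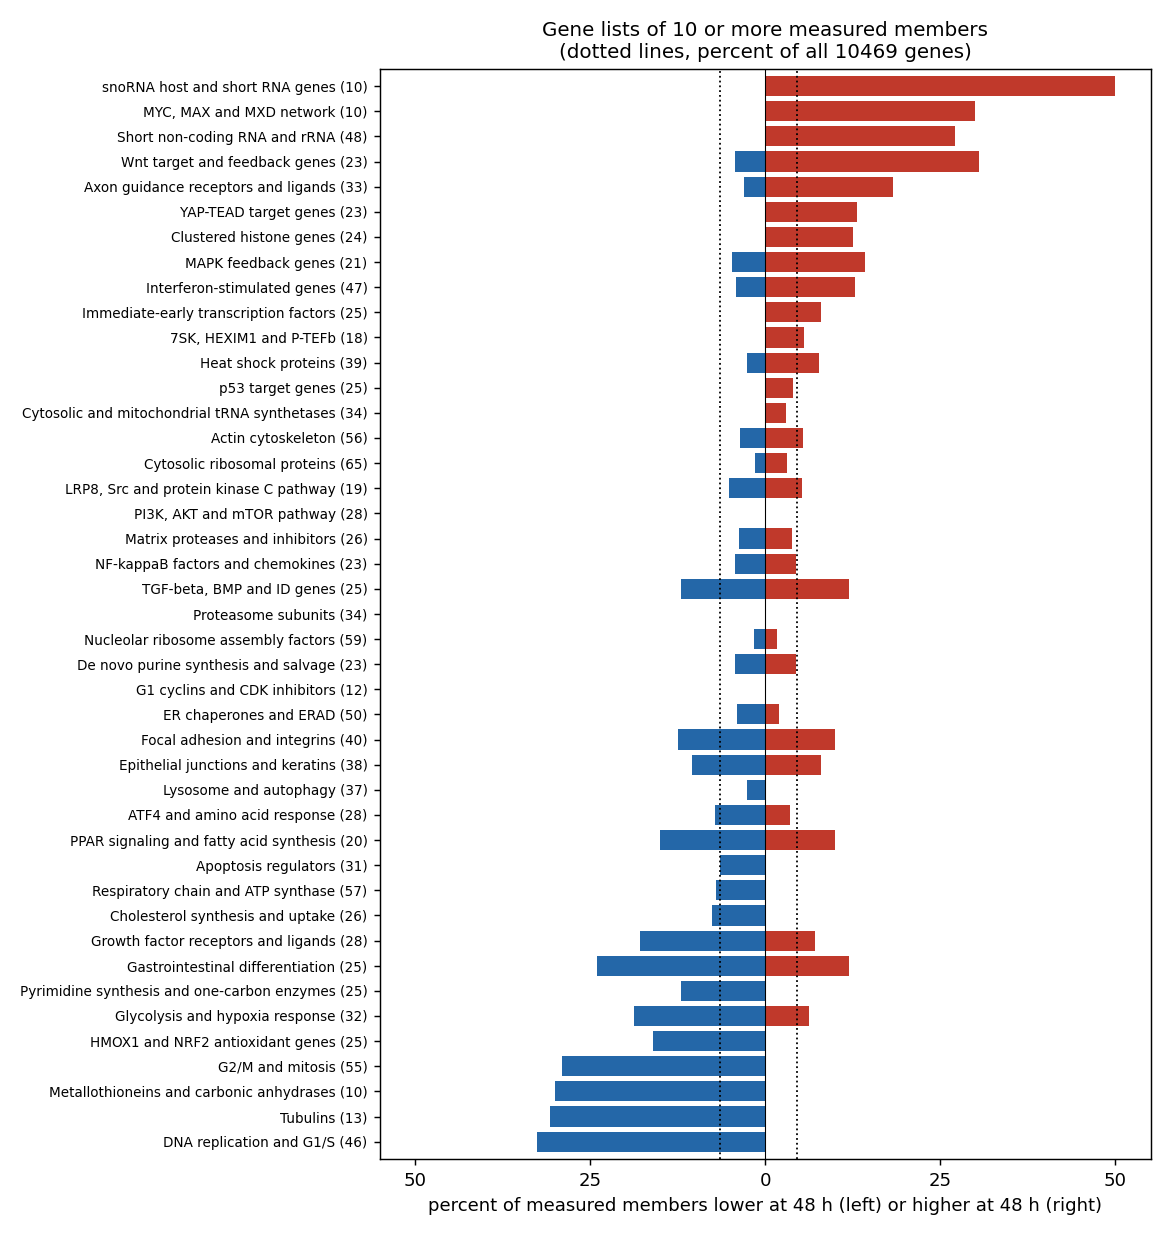
Percent of the measured members of each gene list (number in brackets, lists of 10 or more) that were lower (blue, left) or higher (red, right) at 48 h than at 24 h, with dotted lines at the 6.54% and 4.52% of all 10469 genes. DNA replication (15 of 46) and mitosis (16 of 55) have members on the left side only, and short non-coding RNAs (13 of 48) on the right side only.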

How the data were processed

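Per the labels, total RNA of AGS cells was labelled as biotinylated cRNA and hybridised to Illumina bead arrays. The authors deposited mean bead intensities, a detection score for each probe (a fraction, 1 minus the detection p) and log2 values made with lumi, no version of which is given in the sources used here. From the intensities, background was corrected by normexp with negative controls inferred from the detection p, an offset of 16 was added and values were quantile-normalized (limma 3.58.1, R 4.3.3). Of 48803 probes, 28098 named 1 gene, 13 several and 20692 none in GEO's platform annotation, which is of an earlier version of the array than the study names. The brightest probe with detection p under 0.01 on at least 2 arrays stood for each of 10469 genes. A linear model with 5 group means over 12 arrays was fitted (7 residual degrees of freedom), and 48 h was compared with 24 h by limma's moderated test with Benjamini-Hochberg adjustment at 0.05. Groups came from the sample titles. A gene was named if it was among the 12 highest or lowest called differences, up to 5 largest called members of a list, named by the study, or an IMPDH gene. Others named were chosen after their values were seen. The arrays and the 48 gene lists were chosen with earlier results of these data known. A gene undetected in the dimmer group has a fold bound from the lowest detected signal of each array. The functions were tested on simulated data. The number of arrays limits the precision. AKT2, ICAM1, MMP2 and MMP9 did not pass the detection filter.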

Additional observations from a re-analysis of the deposited data

Results flagged for a closer look

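Among 179 named genes, the lowest or highest of the 4 arrays at 0 h lay far from the other 3, by Dixon's criterion, in 8, which is about the 1 in 20 that chance gives. The 0 h arrays entered the comparison of 48 with 24 h through the estimate of the spread. They also entered through the shared normalization, the detection filter and the choice of probe. On the log2 scale, RREB1 was at 7.36 in replicate 1 against 6.05 to 6.27 in the others, and IFI6 at 13.26 in replicate 1 against 12.74 to 12.79. GATA6 was at 6.14 in replicate 3 against 5.89 to 5.90, and TGFB3 at 6.42 in replicate 3 against 6.17 to 6.21. H4C14 was at 5.92 in replicate 2 against 6.38 to 6.44, and SNORA7B at 7.25 in replicate 1 against 7.54 to 7.60. RPS23 was at 9.83 in replicate 4 against 10.08 to 10.11, and KLF4 at 10.76 in replicate 4 against 10.99 to 11.01. Outside the genes tested, 18 probes that name no gene were detected on both 48 h arrays and on no 24 h or 0 h array.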

How the results depend on the processing

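The counts of genes higher (473) and lower (685) became 261 and 399 with only the 4 arrays in the fit, and 77 genes were higher with median scaling. The 2-fold counts (69 higher, 114 lower) became 25 and 26 with the log2 values of the authors, 18 and 19 without background correction, 40 and 188 with median scaling and 34 and 44 with an offset of 50, and 68 were 2-fold lower among genes detected on all 4 arrays. With median scaling 480 genes were called the same way at 72 h against 12 h, where the main fit gave 815. With 1 of the 24 or 48 h arrays left out, where the lone array of a group is assumed to vary like the other groups, the counts ranged from 104 to 196 higher, 172 to 320 lower, 52 to 86 at least 2-fold higher, and 90 to 139 at least 2-fold lower. With 1 of the 12, 24, 48 or 72 h arrays left out 234 to 716 were called the same way. No called gene turned its call under these settings. Of 162 named genes called, 46 stayed called under all settings in which they were measured and 73 under all such settings that kept every array. Genes undetected on an array of 24 or 48 h were not measured where detection on all 4 arrays was asked.

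Genes that were not called changed sign. ARRB1 was at -0.028 without background correction. With median scaling ATF3 was at -0.063, ITGB5 at -0.17, BSG at -0.14, AKT1 at -0.16 and IMPDH1 at -0.21. ITGB5 was at -0.14 with the mean of its probes and IMPDH1 at -0.024 with scaling to the median of the genes tested, an alternative chosen after seeing the data. With 1 of the 24 or 48 h arrays left out, IGFBP5 ran from -0.079 to 0.31, BSG from -0.032 to 0.20, AKT1 from -0.029 to 0.19, IMPDH1 from -0.12 to 0.13, INF2 from -0.20 to 0.076 and PDGFRA from -0.36 to 0.21. The cause was not tested. POLR1B, which was called (0.81), ran from -0.076 to 0.95, the lowest without 48 h replicate 1, where another of its probes was the brightest.

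The labels do not say if equal replicate numbers pair the arrays. The deviations of same-numbered arrays at 24 and 48 h correlated at 0.02, and those of other treated times at -0.14 to 0.06. With so few arrays these values cannot settle the design. With the replicate number as a block 401 genes were higher and 580 lower, 70 and 112 of them at least 2-fold. Array weights gave 637 and 866.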
